A study of Homo sapiens with 6 samples.

Results

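The insulin-IGF axis was followed through 10 of the 62703 genes listed for the human pancreatic cancer line PANC-1. They are the ligand IGF2, the receptors INSR, IGF1R and IGF2R, the adaptors IRS1, IRS2 and IRS4, and the binding proteins IGFBP3, IGFBP4 and IGFBP6. The 10 genes were selected on values of the contrast described here, among them the absence of IRS4 counts from the control samples. Their levels, fold changes and the count of those called are therefore given as a description, from which no test result is read.

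RNA of 6 samples was sequenced, 3 biological replicates in each of 2 groups. DKK1-SE+/+ cells were the wild-type control. DKK1-SE-/- cells carried a homozygous CRISPR/Cas9 deletion of e1, a component enhancer of the super-enhancer of DKK1 (DKK1-SE), and came from 1 subclone. Both groups grew in DMEM with 10% fetal bovine serum. The p-values below cover only the spread between samples, and an effect of the deletion cannot be told apart from other differences between this subclone and the control cells. Expected counts summed to 21822314, 16475810 and 18803154 in DKK1-SE+/+ replicates 1, 2 and 3, and to 17359835, 20098086 and 17804764 in DKK1-SE-/- replicates 1, 2 and 3. Values of the 3 replicates are given in this order throughout.

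The labels were checked first. DKK1, a secreted Wnt antagonist and the gene of the deleted enhancer, stood at 229, 246 and 199 TPM (TPM give transcript abundance scaled by transcript length and by library) in DKK1-SE+/+ and at 66.8, 79.8 and 82.7 TPM in DKK1-SE-/-. The groups did not overlap, and the DKK1-SE-/- mean was 34.0% of the control mean. DKK1 fell by 1.45 ± 0.11 on the log2 scale (± SE; adjusted p = 6.16e-06, edgeR quasi-likelihood F test, adjusted by Benjamini-Hochberg over 15179 tested genes, n = 3 per group). Ductal epithelial markers were present in every sample and summed to 1901, 1954 and 1993 TPM in DKK1-SE+/+ and 3192, 3128 and 2708 TPM in DKK1-SE-/-. Of these 6 markers, the keratins KRT8, KRT18 and KRT19 were called higher and EPCAM and SOX9 lower.

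Markers of other cells were mostly near 0. The 6 endocrine markers summed to at most 0.41 TPM in any sample, with INS, SST and PPY at 0 throughout, and the 6 acinar markers to at most 0.37 TPM. The 5 fibroblast markers summed to 1.85, 1.55 and 1.14 TPM in DKK1-SE+/+ and to at most 1.1 TPM in DKK1-SE-/-. Among endothelial and leukocyte markers, KDR (2.51, 2.47 and 2.08 against 0.39, 0.33 and 0.55 TPM) and CD68 (43.2, 40.9 and 46.5 against 67.9, 64.8 and 67.1 TPM) had a level, and the other 3 of each list stayed under 1 TPM.

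CDKN2A did not match what is known of the cell line. PANC-1 is known to lack this tumour suppressor gene through a homozygous deletion. CDKN2A had no counts in any DKK1-SE+/+ sample and 91, 132 and 54 counts in DKK1-SE-/-, or 8.52, 10.8 and 5.58 TPM. Whether the DKK1-SE-/- libraries hold RNA of cells other than PANC-1 was not tested, and this bears on every comparison of the groups.

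Insulin and the insulin-like growth factors bind INSR and IGF1R, receptor tyrosine kinases that phosphorylate the insulin receptor substrates (IRS proteins), adaptors that pass the signal to PI3K, AKT and RAS. IGF2R carries no kinase and takes IGF2 to lysosomes, and the IGF-binding proteins hold the growth factors outside the cell. In the pancreas the axis is known for the insulin of beta cells, and in tumour cells for growth and survival signalling.

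IGF2, the ligand, is an imprinted growth factor gene that most tissues express from the paternal allele. It stood at 12.6, 11.8 and 12.2 TPM in DKK1-SE+/+ and at 51.7, 50.5 and 61.4 TPM in DKK1-SE-/-. Every DKK1-SE-/- sample was far above every control sample. From counts, IGF2 was 4.94-fold higher, a log2 fold change of 2.30 ± 0.10 (SE). INS and IGF1, the genes of insulin and of the other growth factor, were listed at 0 in all 6 samples, so IGF2 was the only ligand gene of these with a level.

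The receptors were lower in DKK1-SE-/- or overlapped. IGF1R, the kinase receptor of both growth factors, stood at 27.7, 27.7 and 25.0 TPM in DKK1-SE+/+ and 16.9, 14.6 and 18.1 TPM in DKK1-SE-/-. IGF2R, the clearance receptor, stood at 68.0, 72.3 and 79.1 TPM against 51.4, 45.1 and 51.8 TPM. Neither gene overlapped between the groups, and their log2 fold changes were -0.64 ± 0.13 (SE) for IGF1R and -0.38 ± 0.11 for IGF2R. INSR, the insulin receptor, stood at 0.93, 2.66 and 1.00 TPM against 0.44, 0.74 and 1.94 TPM, with 77, 50 and 79 against 55, 75 and 80 counts. Its groups overlapped on both scales (log2 fold change from counts 0.15 ± 0.22). The transcript length implied by its counts and TPM ran from 1925 to 11475 bases between libraries, so its TPM vary more than its counts.

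Ligand and clearance receptor differed in opposite directions. In TPM, IGF2 stood at 0.186, 0.163 and 0.154 of IGF2R in DKK1-SE+/+ and at 1.01, 1.12 and 1.19 of it in DKK1-SE-/-. In CPM, without length, the mean ratio was 0.0745 and 0.482. The TPM of IGF2 imply a length of 4721 to 5220 bases, against 1583 bases listed in the table, so the ratio in TPM depends on the length used. The 3 receptors summed to 96.6, 103 and 105 TPM in DKK1-SE+/+ and 68.7, 60.4 and 71.8 TPM in DKK1-SE-/-. IGF2R made up 72.0 ± 2.8% (SD, n = 3) of the sum in the controls and 73.9 ± 1.5% in DKK1-SE-/-.

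The adaptors differed in make-up. IRS1, the substrate with the highest level in both groups, stood at 14.3, 15.3 and 18.3 TPM in DKK1-SE+/+ and 9.50, 9.42 and 11.6 TPM in DKK1-SE-/-, without overlap (log2 fold change -0.43 ± 0.11, SE). IRS2, a substrate that FOXO factors induce, stood at 1.57, 2.30 and 2.67 TPM against 2.49, 2.02 and 2.54 TPM. The IRS2 groups overlapped (log2 fold change 0.26 ± 0.19).

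IRS4, an adaptor found in few adult tissues, separated the groups by absence and presence. It had no counts in any DKK1-SE+/+ sample and 746, 976 and 1067 expected counts in DKK1-SE-/-, or 6.87, 7.16 and 9.76 TPM. As CPM (counts scaled by TMM library size, without length) the DKK1-SE-/- samples had 45.8, 49.8 and 59.4. Against a floor of 3 counts in each control library, IRS4 was at least 331-fold higher, a log2 fold change of at least 8.37. IRS4 thus shared with CDKN2A the pattern of counts in all 3 DKK1-SE-/- samples and in no control, and whether its counts come from PANC-1 cells was not tested.

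IRS1, IRS2 and IRS4 summed to 15.9, 17.6 and 21.0 TPM in DKK1-SE+/+ and to 18.9, 18.6 and 23.9 TPM in DKK1-SE-/-, sums that overlapped. In CPM the sums were 105, 120.3 and 127 against 143, 143 and 148, higher in every DKK1-SE-/- sample. IRS4 gave 36.4%, 38.5% and 40.9% of the sum in DKK1-SE-/-. The share of IRS1 was 88.1 ± 1.7% (SD, n = 3) in DKK1-SE+/+ and 49.8 ± 1.2% in DKK1-SE-/-, and that of IRS2 was 11.9 ± 1.7% and 11.6 ± 1.4%.

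**Figure D1:**
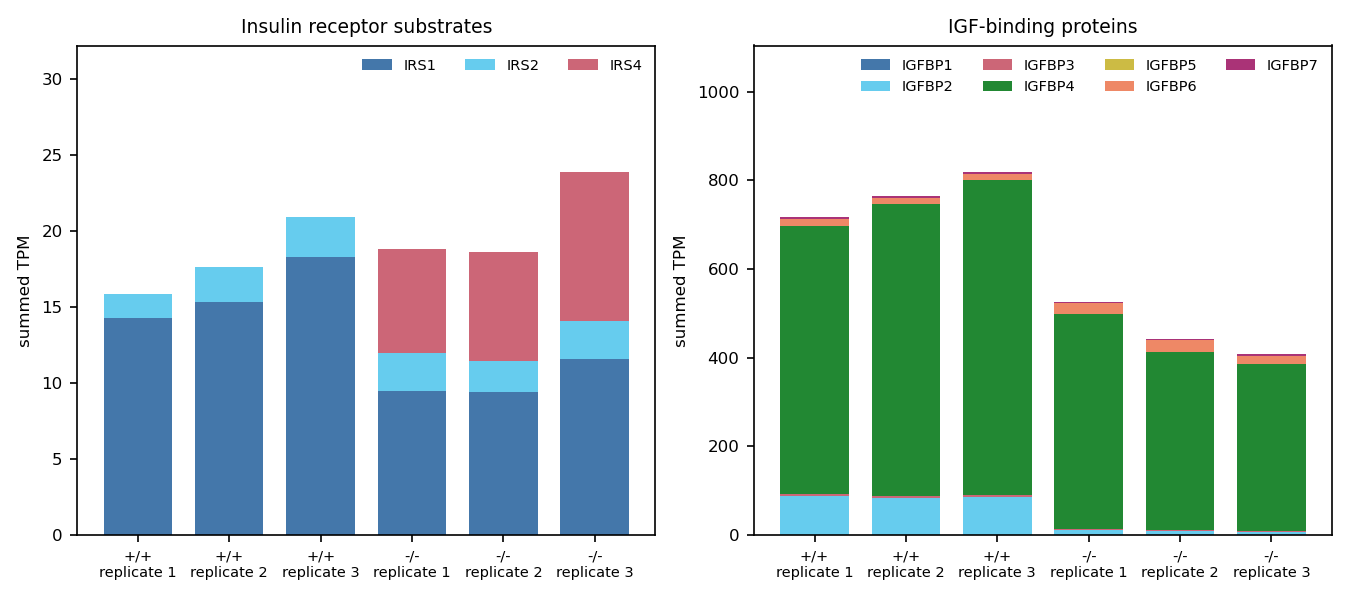
Summed TPM of IRS1, IRS2 and IRS4 and of IGFBP1 to IGFBP7 in each of the 6 samples, stacked by gene. IRS4 appears in the DKK1-SE-/- bars alone, while the sum of the binding proteins is lower in every DKK1-SE-/- sample (407 to 525 TPM, against 718 to 818 TPM).

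The bases upstream of IRS4 are shown because this gene had counts in 1 group only. RefSeq promoters (GRCh38.p14) were matched for 9 of the 10 genes, with 2 windows of 250 bases for IRS4. The window at chrX:108736564-108736813, minus strand, ends at the base before the annotated start of IRS4. Capitals mark GC boxes, which bind SP-family factors and read CCGCCC on the strand shown.

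IRS4: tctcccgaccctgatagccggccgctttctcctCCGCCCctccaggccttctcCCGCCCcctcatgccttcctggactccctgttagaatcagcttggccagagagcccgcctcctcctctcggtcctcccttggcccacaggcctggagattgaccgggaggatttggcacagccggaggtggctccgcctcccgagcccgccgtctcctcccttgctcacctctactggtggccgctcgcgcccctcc

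This window held 2 GC boxes, at 217 and 197 bases before the start, and 68.0% of its bases were G or C. All 10 windows held a GC box (GGGCGG on either strand), against 42.6% of all 35116 promoters. None held the AP-1 motif TGACTCA (4.2% of all promoters). The FOXO motif TGTTTAC was in 1 window, of IGFBP6 (2.98% of all promoters). The E-box CACGTG was in 2, of IGF2R and the other IRS4 window (6.34%). That IRS4 window, chrX:108736378-108736627, lies mostly inside the annotated gene, and so does its E-box. The IGFBP6 window also lies mostly inside its annotated gene, and the IGFBP3 window wholly so. All motif hits are matches of letters, and binding was not measured.

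IRS4-AS1, a non-coding gene on the opposite strand that overlaps IRS4, was at 0 TPM in every DKK1-SE+/+ sample and at 0.11, 0.19 and 0.34 TPM in DKK1-SE-/-, too low to be tested. The libraries were stranded, but the strand used in counting is not given in the sources used here, so reads of IRS4 and IRS4-AS1 cannot be told apart where they overlap. The 5 tested genes closest to IRS4 in level pattern, by Euclidean distance of log2(TPM + 1) over the 6 samples, were ENSG00000282306 and ENSG00000282222 (processed pseudogenes on chromosome X), SPP1, UCHL1 and CDKN2A, at distances of 0.789 to 0.928. SPP1, which encodes osteopontin, stood at 0.18, 0.18 and 0.02 TPM against 4.56, 5.95 and 6.57 TPM. UCHL1, a ubiquitin hydrolase of neurons, had no counts in the controls and stood at 10.2, 6.64 and 5.87 TPM in DKK1-SE-/-.

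Closest to IGF2 by the same measure were TRNP1, LINC00665, DENND3, SESN2 and PTPRH, at distances of 0.545 to 0.962. TRNP1, a nuclear protein of neural progenitors, stood at 9.61, 12.1 and 14.0 TPM in DKK1-SE+/+ and 55.6, 45.8 and 49.0 TPM in DKK1-SE-/-. SESN2, a stress-induced inhibitor of mTORC1, stood at 12, 13.4 and 14.4 TPM against 43.1, 37.3 and 36.8 TPM. Both were picked by their likeness to IGF2, so nothing is read from their direction.

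Of the binding proteins, IGFBP4 had the highest TPM of the 10 genes in both groups, at 606, 660 and 710 TPM in DKK1-SE+/+ and 484, 402 and 376 TPM in DKK1-SE-/-. IGFBP3, the main IGF carrier in serum, stood at 4.74, 4.07 and 4.23 TPM against 2.43, 1.78 and 2.48 TPM. IGFBP6, which prefers IGF2 to IGF1, stood at 15.5, 12.5 and 14.6 TPM against 25.7, 26.8 and 17.9 TPM. IGFBP4 and IGFBP3 were lower and IGFBP6 was higher in every DKK1-SE-/- sample. The share of all genes without overlap in TPM is not given, here or for IGF1R, IGF2R and IRS1. By adjusted p, a different measure, 39.3% of all tested genes were called. The log2 fold changes of IGFBP4, IGFBP3 and IGFBP6 were -0.48 ± 0.14 (SE), -0.85 ± 0.19 and 0.89 ± 0.20.

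IGFBP1 to IGFBP7 together summed to 718, 764 and 818 TPM in DKK1-SE+/+ and to 525, 442 and 407 TPM in DKK1-SE-/-. IGFBP4 made up 85.9 ± 1.3% (SD, n = 3) of the sum in the controls and 91.9 ± 0.74% in DKK1-SE-/-, and IGFBP6 1.86 ± 0.27% and 5.11 ± 0.86%. IGFBP2, which is not among the 10 genes, went from 11.1 ± 0.90% to 1.82 ± 0.13%. In CPM, without length, the mean shares in DKK1-SE+/+ and DKK1-SE-/- were 93.5% and 96.4% for IGFBP4. They were 0.74% and 1.95% for IGFBP6, and 4.73% and 0.73% for IGFBP2.

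By mean TPM, the order in DKK1-SE+/+ was IGFBP4 (659), IGF2R (73.1), IGF1R (26.8), IRS1 (15.97), IGFBP6 (14.2), IGF2 (12.2), IGFBP3 (4.35), IRS2 (2.18), INSR (1.53) and IRS4 (0). Samples of IRS1 and IGFBP6, of IGFBP6 and IGF2, and of IRS2 and INSR overlapped. In DKK1-SE-/- the order was IGFBP4 (421), IGF2 (54.5), IGF2R (49.4), IGFBP6 (23.4), IGF1R (16.5), IRS1 (10.2), IRS4 (7.93), IRS2 (2.35), IGFBP3 (2.23) and INSR (1.04). IGF2 thus ranked 6 in the controls and 2 in DKK1-SE-/-, where its samples overlapped those of IGF2R. IGFBP6 with IGF1R, IRS1 with IRS4, and IRS2, IGFBP3 and INSR overlapped in turn.

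At an adjusted p under 0.05, 8 of the 10 genes were called, 3 higher and 5 lower. Of all 15179 tested genes 39.3% were called, 19.8% higher and 19.5% lower. Since the 10 genes were selected on this contrast, nothing is read from that count. Without DKK1-SE+/+ replicate 2, DKK1-SE+/+ replicate 3 or DKK1-SE-/- replicate 2, IGF2R (log2 fold changes -0.37, -0.36 and -0.30) and IGFBP4 (-0.49, -0.43 and -0.47) were not called, nor was IGF2R with the replicate block (-0.39). Over all genes, log2 fold changes correlated with the GC content of the gene (Spearman 0.404, 15167 genes, which are not independent). With a GC offset for each library, the log2 fold change was 2.03 for IGF2, 0.50 for IGFBP6, -0.50 for IGF2R and -0.82 for IGFBP4.

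The wider axis was followed with 90 further genes in 13 roles, without the 10. This list too was drawn up with earlier results of these data known. Its counts and shares are therefore given as a description. Of the 90 genes, 74 had enough counts to be tested: 20 rose (27.0%, against 19.8% of all tested genes), 21 fell (28.4%, against 19.5%) and 33 did not pass. The counts by role below stand beside the same shares of all tested genes. Their median log2 fold change was 0.03, as over all tested genes. Past an absolute log2 fold change of 1.2 as well, 4 rose (SOCS1, H19, TXNIP and SESN3) and 4 fell (IGFBP2, GAB1, FOXO1 and PDK4), where 1268 of all 15179 tested genes passed both limits. The number that rose was 11 without DKK1-SE+/+ replicate 1, 13 without DKK1-SE+/+ replicate 2, and 13 without DKK1-SE-/- replicate 1. With the GC offset 16 rose and 24 fell (median -0.05), and with limma on log2(TPM + 1) 9 rose and 17 fell.

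Of the 5 other genes of the binding-protein family, 2 were tested and both fell. IGFBP2, an IGF carrier that also binds integrins, stood at 87.1, 82.6 and 85.0 TPM in DKK1-SE+/+ and 9.59, 8.63 and 6.85 TPM in DKK1-SE-/-. Each DKK1-SE-/- sample was far below every control (log2 fold change -3.21 ± 0.18, SE; adjusted p = 6.9e-07). IGFBP7, a relative with low affinity for IGFs, fell by 0.77 ± 0.23 on the log2 scale (adjusted p = 0.0203; 0.081, 0.0591 and 0.0503 without DKK1-SE+/+ replicate 1, DKK1-SE+/+ replicate 2 and DKK1-SE-/- replicate 2, and 0.0615 with DESeq2). Among the proteases of binding proteins and their inhibitors, STC1, a stanniocalcin, fell by 0.92 ± 0.15 (adjusted p = 0.000728). STC2, the most abundant of them at means of 197 and 208 TPM, did not pass.

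Near IGF2 itself, H19, the imprinted non-coding RNA gene beside it, stood at 9.26, 10.2 and 9.89 TPM in DKK1-SE+/+ and 31.8, 25.6 and 28.9 TPM in DKK1-SE-/-. H19 rose without overlap (log2 fold change 1.61 ± 0.15, SE; adjusted p = 2.2e-05). IGF2 and H19, known to be expressed from opposite parental alleles, were thus both higher. Of the other regulators of the locus 4 of 4 did not pass, among them CTCF, which insulates IGF2 from its enhancers. HMGA2, a chromatin protein at means of 115 and 101 TPM, did not pass (log2 fold change -0.04, adjusted p = 0.776), and was higher with the GC offset (0.33, adjusted p = 0.00629).

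IGF2BP1, which binds IGF2 mRNA, fell by 0.42 ± 0.11 (SE, log2; adjusted p = 0.0108), and IGF2BP2 and IGF2BP3 did not pass. IDE, the insulin-degrading enzyme, stood at 15.3, 15.3 and 15.7 TPM in DKK1-SE+/+ and 5.39, 6.84 and 10.0 TPM in DKK1-SE-/-, and fell by 0.91 ± 0.16 (adjusted p = 0.00121; log2 fold change -0.51 with the GC offset). FURIN, a protease that matures hormone precursors and receptors, fell by 0.44 ± 0.12 (adjusted p = 0.015; log2 fold change -0.76 with the GC offset). Without DKK1-SE+/+ replicate 2, DKK1-SE+/+ replicate 3 or DKK1-SE-/- replicate 2 the adjusted p was 0.0507, 0.0597 and 0.0543 for IGF2BP1, and 0.0588, 0.072 and 0.058 for FURIN.

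Among 9 tested adaptors other than the IRS genes, 3 rose and 3 fell. Each was 33.3%, against 19.8% higher and 19.5% lower of all tested genes. SHC1, which links receptors to RAS, was the most abundant of them and rose from a mean of 284 to 357 TPM (log2 fold change 0.51 ± 0.11, SE; adjusted p = 0.00376; 0.27 with the GC offset, and adjusted p = 0.0523 with the GC offset and replicate block). SOS1, the exchange factor that activates RAS, went from 17.1, 17.7 and 15.5 to 6.17, 6.96 and 11.7 TPM and fell by 0.92 ± 0.15 (adjusted p = 0.000757). GAB1, a docking protein, fell by 1.56 ± 0.31 (adjusted p = 0.00258) from 69, 45 and 58 to 14, 14 and 25 counts, although its TPM overlapped and limma on TPM did not call it (adjusted p = 0.103).

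SH2B2, an adaptor of the insulin receptor, rose by 1.16 ± 0.37 (SE, log2; adjusted p = 0.0265) at 8 to 29 counts. LRP1, an endocytic receptor that binds IGFBP3, rose by 0.36 ± 0.12 (adjusted p = 0.0276). The GC offset ended both calls (adjusted p = 0.12 for SH2B2 and 0.502 for LRP1). So did the replicate block (0.0595 and 0.0767), as well as DESeq2 (0.126) and no filter (0.0509) for SH2B2, and library size alone (0.0564) and limma (0.319) for LRP1. LRP1 was not called without DKK1-SE+/+ replicate 1, DKK1-SE+/+ replicate 2 or DKK1-SE-/- replicate 1 (adjusted p = 0.168, 0.136 and 0.0831). SH2B2 was called in 1 of 6 fits that left out a sample, the one without DKK1-SE-/- replicate 3, and had an adjusted p of 0.0557 to 0.104 without each of DKK1-SE+/+ replicates 1, 2 and 3 and DKK1-SE-/- replicates 1 and 2.

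Among 8 tested negative regulators of the receptors, 3 rose (37.5%, against 19.8% of all tested genes) and 1 fell (12.5%, against 19.5%). TRIB3, a pseudokinase that binds AKT, went from 29.2, 30.6 and 34.9 to 64.4, 65.7 and 54.5 TPM (log2 fold change 1.10 ± 0.14, SE; adjusted p = 0.000155). GRB10, an imprinted adaptor that blocks the kinase receptors, went the other way, from 50.5, 52.6 and 53.8 to 30.0, 30.2 and 31.3 TPM (log2 fold change -0.68 ± 0.10; adjusted p = 0.000376). Neither gene overlapped between the groups. PTPN1, a phosphatase of the insulin receptor, rose by 0.62 ± 0.10 (adjusted p = 0.000988). SOCS1, an inhibitor of cytokine and insulin signalling at 9 to 43 counts, rose by 1.57 ± 0.44 (adjusted p = 0.0152). Its adjusted p was 0.0702, 0.057, 0.0529 and 0.0675 without DKK1-SE+/+ replicate 1, DKK1-SE+/+ replicate 3, DKK1-SE-/- replicate 1 and DKK1-SE-/- replicate 2. PTPRF, with the highest TPM of the role as a mean over all 6 samples, did not pass.

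The PI3K and AKT core split evenly, with 6 of 18 tested genes higher and 6 lower. Each was 33.3%, against 19.8% higher and 19.5% lower of all tested genes. GSK3B, a kinase that AKT inhibits, rose by 0.96 ± 0.12 (SE, log2; adjusted p = 0.00013), and its relative GSK3A by 0.52 ± 0.11 (adjusted p = 0.00437; log2 fold change 0.33 with the GC offset, and adjusted p = 0.133 with limma on TPM). EIF4EBP1, the mTORC1 target that holds back translation, went from 124, 122 and 135 to 58.1, 58.4 and 40.1 TPM and fell by 1.10 ± 0.18 (adjusted p = 0.000733). TBC1D4, an AKT substrate in glucose transporter traffic, fell by 1.07 ± 0.16 (adjusted p = 0.000573). AKT2, the most abundant of the role at means of 1283 and 1312 TPM, did not pass.

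Among the phosphatases and other brakes of the pathway, 2 genes rose. TSC2, a brake on mTORC1, rose by 0.66 ± 0.13 (SE, log2; adjusted p = 0.00195; log2 fold change 0.34 with the GC offset, and adjusted p = 0.0572 with limma on TPM). INPPL1, a lipid phosphatase, rose by 0.39 ± 0.12 (adjusted p = 0.0242), a call that the GC offset (adjusted p = 0.383) and the replicate block (0.0667) ended. Its adjusted p was 0.172, 0.0892 and 0.0734 without DKK1-SE+/+ replicate 1, DKK1-SE+/+ replicate 2 and DKK1-SE-/- replicate 1.

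FOXO factors, which AKT keeps out of the nucleus, and their known targets went both ways. Of 9 tested genes, 4 were higher (44.4%, against 19.8% of all tested genes) and 2 lower (22.2%, against 19.5%). FOXO1 fell by 1.30 ± 0.30 (SE, log2; adjusted p = 0.00573), and FOXO3, the most abundant of the role, rose by 0.48 ± 0.11 (adjusted p = 0.00624; 0.0528 without DKK1-SE+/+ replicate 1 and 0.165 with limma on TPM). PDK4, a kinase that holds back pyruvate oxidation, fell by 2.49 ± 0.36 (adjusted p = 0.000374), from 56, 57 and 50 to 5, 13 and 9 counts. TXNIP, which limits glucose uptake, rose by 2.13 ± 0.46 (adjusted p = 0.00414), from 17, 4 and 4 to 29, 36 and 34 counts. SESN3, a relative of SESN2, rose by 2.31 ± 0.41 (adjusted p = 0.00134) at 5 to 44 counts, but its TPM overlapped and limma on TPM did not call it (adjusted p = 0.343). BCL6, a transcriptional repressor, rose by 0.73 ± 0.14 (adjusted p = 0.00174; 0.131 with limma on TPM).

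Of the 7 tested metabolic genes, 2 fell (28.6%, against 19.5% of all tested genes) and 5 did not pass. SLC2A1, the glucose transporter GLUT1, fell by 0.68 ± 0.14 (SE, log2; adjusted p = 0.00344; 0.0801 with limma on TPM). SREBF1, which drives lipid synthesis genes, went from 82.7, 76.2 and 77.7 to 49.1, 42.1 and 42.1 TPM and fell by 0.60 ± 0.15 (adjusted p = 0.00913; by 0.94 with the GC offset). ACLY, the citrate lyase, with the highest TPM of the role as a mean over all 6 samples though not in the controls, did not pass (adjusted p = 0.0546).

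Of 27 other genes within 1 Mb of IRS4 on chromosome X, 11 were at 0 TPM in all samples and 9 were tested. TSC22D3 and ACSL4 passed, 2 of 9, where 39.3% of all tested genes did. TSC22D3, a glucocorticoid-induced gene whose start lies 959 kb away, stood at 4.49, 4.85 and 6.26 TPM in DKK1-SE+/+ and 12.5, 8.90 and 9.63 TPM in DKK1-SE-/-, and rose by 1.21 ± 0.16 (SE, log2; adjusted p = 0.000256). ACSL4, a fatty acid ligase on the other side (-997 kb), went from 43.5, 48.7 and 46.2 to 12.1, 20.5 and 24.4 TPM and fell by 1.21 ± 0.17 (adjusted p = 0.000305), or by 0.76 with the GC offset. Both lie at the edges of the window, and the 7 tested genes between them and IRS4 did not pass by edgeR. By limma COL4A5, a collagen gene, was called lower as well, and with the GC offset 2 genes were called higher and 1 lower.

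Of 93 other genes within 1 Mb of IGF2 on chromosome 11, 41 were at 0 TPM in all samples and 25 were tested, of which 13 rose (52.0%, against 19.8% of all tested genes) and 12 did not pass, with a median log2 fold change of 0.48. None fell by edgeR, DESeq2 or limma, with 0 at an unadjusted p under 0.05 by each. With the GC offset 9 rose and 2 fell, MUC5AC, a mucin gene (log2 fold change -0.70 ± 0.19, SE; adjusted p = 0.0117), and BRSK2, a kinase gene (-0.35 ± 0.10; adjusted p = 0.016), and the median was 0.22. Without DKK1-SE+/+ replicate 1, DKK1-SE+/+ replicate 2 or DKK1-SE-/- replicate 2, 8 genes passed each time.

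Beside H19, MUC5B, a mucin gene, rose by 2.90 ± 0.35 (SE, log2; adjusted p = 0.000134), from 9, 9 and 19 to 97, 95 and 65 counts. CTSD, the lysosomal protease cathepsin D, went from 386, 437 and 458 to 799, 710 and 618 TPM, without overlap, and rose by 0.90 ± 0.13 (adjusted p = 0.000485; 0.53 with the GC offset). DUSP8, a phosphatase of stress kinases, rose by 1.06 ± 0.19 (adjusted p = 0.0012; 0.64 with the GC offset), and CARS1, a cysteine tRNA ligase, by 0.43 ± 0.09 (adjusted p = 0.00453; log2 fold change 0.25 with the GC offset, and adjusted p = 0.0583 with the replicate block added). OSBPL5, a lipid transfer protein gene, rose by 0.67 ± 0.17 (adjusted p = 0.0102; 0.0631 without DKK1-SE+/+ replicate 1; log2 fold change 0.33 with the GC offset, and adjusted p = 0.0571 with the replicate block added). KCNQ1, a potassium channel gene at 0 to 12 counts, rose by 2.46 ± 0.67 (adjusted p = 0.0135; 0.0601 with DESeq2 and 0.0557 with the GC offset and replicate block).

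Several other rises were not kept without 1 sample or with the GC offset. The GC offset ended the calls of TOLLIP (log2 fold change 0.38; adjusted p = 0.0336, then 0.202), MOB2 (0.72; 0.0124, then 0.0562), PHLDA2 (0.56; 0.0254, then 0.115) and TSSC4 (0.48; 0.0176, then 0.353). Limma did not call TOLLIP (0.0612), PHLDA2 (0.118) or TSSC4 (0.0558), and library size alone (0.0558) and the replicate block (0.0811) ended the call of TOLLIP. Without DKK1-SE+/+ replicate 2 and without DKK1-SE-/- replicate 2, the adjusted p was 0.125 and 0.0865 for TOLLIP, 0.0634 and 0.0606 for MOB2, 0.108 and 0.104 for PHLDA2, and 0.0771 and 0.0801 for TSSC4. Without DKK1-SE+/+ replicate 1 it was 0.17 for TOLLIP, 0.0963 for PHLDA2 and 0.0696 for TSSC4, without DKK1-SE+/+ replicate 3 it was 0.0594 for TOLLIP and 0.0526 for TSSC4, and without DKK1-SE-/- replicate 1 it was 0.105 for TOLLIP and 0.0792 for PHLDA2. CARS1-AS1 (1.27; adjusted p = 0.0306) was called only without DKK1-SE+/+ replicate 1 among these fits, with 0.109 and 0.114 without DKK1-SE+/+ replicates 2 and 3, and 0.0724, 0.0699 and 0.0593 without DKK1-SE-/- replicates 1, 2 and 3. DESeq2 (0.0737) and limma (0.0512) did not call it.

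IGF2-AS, the gene antisense to IGF2, stood at 0, 0.28 and 0.17 TPM in DKK1-SE+/+ and 0.61, 0.44 and 0.57 TPM in DKK1-SE-/- and rose by 2.34 ± 0.68 (SE, log2; adjusted p = 0.0186; 0.0557 and 0.0627 without DKK1-SE+/+ replicate 1 and DKK1-SE-/- replicate 1, and 0.0522 with the GC offset and replicate block). Its reads and those of IGF2 cannot be told apart where they overlap. Of the other overlapping genes, INS-IGF2, MIR483 and ENSG00000284779 were listed at 0 in all samples, and ENSG00000240801 had too few counts to be tested.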

How the data were processed

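Stranded mRNA libraries of 6 PANC-1 samples were sequenced, and the deposited table holds 1 expected count for each gene in each sample, without scaling to library size. The authors also deposited TPM, which are scaled by gene length within each library. Aligner and counter are not given in the sources used here, and the build is hg38 per the submitters' processing notes. The fold-change and p-value columns hold the authors' own comparison and were not used. All columns of counts and TPM were assigned to a sample by group and replicate number.

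Of 62703 genes listed, 62625 were placed with GENCODE 44. Expected counts (32.3% of those above 0 were not whole) were rounded. Groups of 3 were compared with edgeR 4.0.16 in R 4.3.3 (quasi-likelihood F test, TMM, filterByExpr with a minimum count of 10), and p-values were adjusted by Benjamini-Hochberg over 15179 tested genes, with 0.05 as threshold. The scripts were tested on simulated data. The alternatives were RLE size factors, library size alone, DESeq2 1.42.0, no filter, a replicate block, limma 3.58.1 on log2(TPM + 1), a GC offset in 40 bins with and without the block, each sample left out, and a fold limit.

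The members and lists were chosen with earlier results of these data known. Named were the 10 members, DKK1, and in each role of the axis list the genes past the threshold with a log2 fold change of 1.2 or more in size, the 2 with the smallest p in each direction, and the gene with the highest mean TPM. Also named were genes within 1 Mb of IRS4 or IGF2 past the threshold or overlapping them, the 5 genes most like each in level, and the 10 highest genes with counts in DKK1-SE-/- alone; 2 genes that this rule covers are not reported here. CDKN2A as a check of the labels, and the genes that fell near IGF2 with the GC offset, were chosen after their values were seen. Marker lists covered ductal, endocrine, acinar, fibroblast, endothelial and leukocyte cells.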

Additional observations from a re-analysis of the deposited data

How the results depend on the processing

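The 20 other axis genes that rose became 13 with a replicate block, 9 with limma on log2(TPM + 1) and 11 to 21 when a sample was left out, and the 21 that fell became 15 to 27. With an unadjusted p under 0.05 and a log2 fold change of 1.2 or more in size, 4 rose and 4 fell. The 13 genes past the threshold near IGF2 became 7 with a GC offset and block together, 8 to 17 with a sample left out and 5 under the fold rule. The 2 genes near IRS4 became 2 to 3 with a sample left out, and the 8 members called became 6 to 8, and 2 under the fold rule. The cause was not tested. HMGA2, not called at a log2 fold change of -0.04, was called higher at 0.33 with the GC offset and 0.33 with the block as well (adjusted p = 0.00629 and 0.0232). For 78 named genes, leaving out a sample gave 468 values, of which 54 ended a call and 0 passed with the other sign. Other settings gave 624 values for these genes, of which 43 ended a call and 2, both of HMGA2, passed with the other sign. MUC5AC and BRSK2 were not among the 78. By edgeR, BRSK2 had a log2 fold change of 0.04 in the main fit (adjusted p = 0.886). With the GC offset it was -0.35 (adjusted p = 0.016), so BRSK2 passed with the other sign as well. Samples with the same number correlated at -0.123, -0.0738 and -0.109, against 0.051 for other pairs, so the numbers do not pair them, and the block took calls over all genes from 5972 to 4981. With limma the median over tested genes was -0.08 instead of 0.03, and 35.8% of calls were higher instead of 50.5%. IRS4 made up 38.6% of the IRS sum in TPM and 35.6% in CPM. On that scale the log2 ratio was -0.38 for IGF2R and -0.43 for IRS1.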

Other observations

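IRS4 was 1 of 29 genes without counts in all 3 DKK1-SE+/+ samples and with at least 10 in each DKK1-SE-/- sample, while 6 genes showed the reverse pattern. By mean TPM in DKK1-SE-/- it ranked 4 among the 29, and by mean count 2. GAGE2A, a cancer-testis antigen gene on chromosome X, ranked first at 19.8, 30.3 and 20.5 TPM, and its value is uncertain because GAGE copies are nearly identical. Lower in that order stood, among others, HOXA10 at 2.45, 2.21 and 2.43 TPM, HOXD13 at 1.91, 2.61 and 1.38 TPM, HAND1 at 2.27, 2.06 and 1.27 TPM, and HOXD10 at 1.66, 1.25 and 2.07 TPM. ENSG00000282668, a processed pseudogene on chromosome X, stood at 2.06, 2.21 and 3.68 TPM. Whether these counts come from PANC-1 cells was not tested.

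The DKK1-SE-/- cells are described as 1 subclone, so other differences from the control cells cannot be told apart from the deletion, and whether these libraries hold RNA of other cells was not tested. RNA levels do not give protein levels, receptor activity or secreted IGF2. Allele-specific expression of IGF2 and H19 was not measured. Reads of antisense partners cannot be told apart where they overlap, and TPM of genes with few counts, such as INSR, vary with the transcript length assigned in each library.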
